A study of Homo sapiens with 6 samples.

Results

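The coding body is the middle of each coding sequence, away from the windows next to the start and stop codons. It was taken here as bins 21 to 180 of the 200 coding bins that the deposited tables hold for every RefSeq transcript. Rows were chosen by bin position and by being listed in all 3 tables, not by their values. These rows numbered 17641 of the 20708 listed in at least 1 table, and 9574 named genes stood behind them. A body depth of at least 3000 in each of the 3 tables was required for slopes and peaks, and 9709 rows of 5423 genes met it. In 154 rows the body held no depth in at least 1 table.

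Ribosome footprints were read in 6 libraries of 3 groups, all from the human melanoma line CHL-1, an established line. The parental group was untreated. The edited group carried a CRISPR edit at SNORD50A/B, which are 2 neighbouring genes for small nucleolar RNAs of the box C/D class, with no control-edited line beside it, and the labels do not say whether it is 1 clone. The third group received 10 mM AZC, a proline analog that is built into new proteins, and MG132, which inhibits the proteasome, at 20 µM for 20 minutes. Each group has 1 library labelled as rRNA removed and 1 without that label, and the lysis buffer of all groups held cycloheximide, a drug that keeps ribosomes in place on their messengers. There is 1 table per group (called the parental, the edited or CRISPR, and the treated or AZC + MG132 table) and no replicate of it, so each difference is one between single tables and carries no test. Values given as 3 numbers follow that order. The shares of AZC and of MG132 in a difference cannot be told apart, nor can the edit be told apart from the library it was read in.

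A ribosome protects the short stretch of messenger it sits on, and the depth of such footprints along a coding sequence shows where ribosomes were when the cells were lysed. If ribosomes enter at a steady rate, move at an even speed and do not leave early, depth is level from start to stop. Depth falls along the body when ribosomes leave early, when they move more slowly near the start, or when a rise in initiation has not yet travelled to the end. A local peak marks a place where ribosomes dwell or where one fragment was sequenced many times. Footprint depth alone does not separate these cases.

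Summed body depth was 319.9, 385.1 and 216.5 megabases of footprint. The body makes up 160 of 200 coding bins and held 79.4%, 78.1% and 75.6% of coding depth in that order. The median row held a body depth of 5847, 7017 and 3710. Of 10 markers of the melanocyte and neural crest lineage, 5 met the minimum, among them SOX10 with a body depth of 128602 in the parental table, while the pigment gene MLANA was at 0 in all 3 tables and PMEL and TYR had no row in all 3. None of the 4 keratinocyte, 4 leukocyte, 3 endothelial and 2 hepatocyte markers met it (0 of each).

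The slope of a row is the log2 ratio of the depth in the later 80 bins of the body over that in bins 21 to 100, so 0 is a level body and -1 is a later part with 2-fold less depth. In the treated cells the body sloped down in most messengers, including those of glycolysis, the ribosome, the proteasome and cytosolic chaperones. The median slope over 9709 rows was -0.01 in the parental table (interquartile range -0.29 to 0.29), 0.00 in the CRISPR table (-0.38 to 0.40) and -0.25 in the AZC + MG132 table (-0.63 to 0.09). Slopes lay below 0 in 50.7%, 49.9% and 68.9% of rows. The parental and edited tables were thus level in the median row, and the treated table was not.

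Averaged over rows, each scaled to its own mean body bin, depth in the treated table was 1.22 in bins 21 to 40. It was lower in each following window of 20 bins, at 1.10, 1.04, 0.99, 0.94, 0.92 and 0.90, down to 0.89 in bins 161 to 180. The parental profile stayed between 0.98 and 1.02 in these 8 windows and the CRISPR profile between 0.98 and 1.01. The decline was steepest at the beginning of the body, where the ratio of treated to parental depth went from 1.25 to 1.12 between the first and the next window, against 0.90 and 0.89 in the last pair. Single bins stood out at fixed places in all tables. Bin 100 was at 1.11, 1.10 and 1.06 and the next bin at 0.92, 0.91 and 0.90 in the parental, edited and treated tables. These steps fall at the same bins in every table. The step after bin 100 lies on a window border and on the border between the earlier and later bins of the slope.

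**Figure D1:**
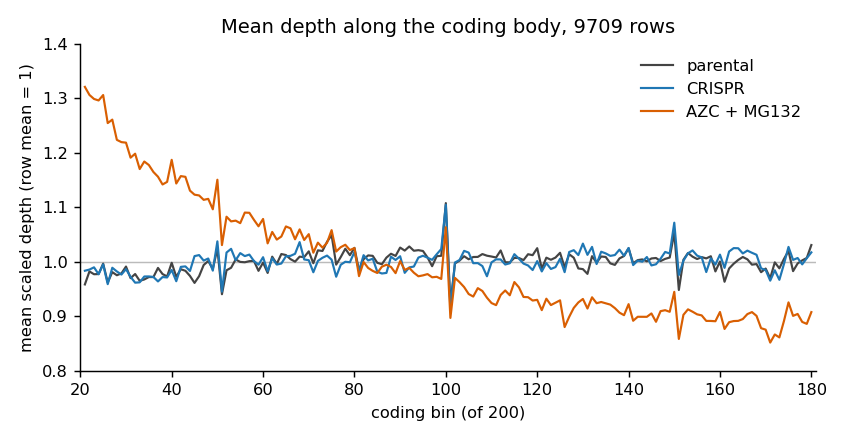
Mean depth per coding bin over 9709 rows, each row scaled to its mean body bin (1 on the y axis), with 1 line for each table. The AZC + MG132 line starts at 1.32 in bin 21 and ends near 0.9, and the parental and CRISPR lines stay near 1 except for short steps such as that at bin 100.

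Within rows, the slope in the AZC + MG132 table minus that in the parental table had a median of -0.27 (interquartile range -0.60 to 0.07) and was below 0 in 70.6% of rows. A slope difference of 1 or more in size, a 2-fold limit and not a test, was met downwards by 883 rows (9.09%) and upwards by 169 rows (1.74%). With 1 row per gene these were 477 of 5423 genes (8.8%) and 105 genes (1.94%). Rows past the limit were mostly shallow ones. In the 799 rows with a body depth of at least 50000 in each table, 86.1% had a lower slope in the treated cells and the median difference was -0.30, but only 14 rows were 2-fold lower and 3 were 2-fold higher.

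**Figure D2:**
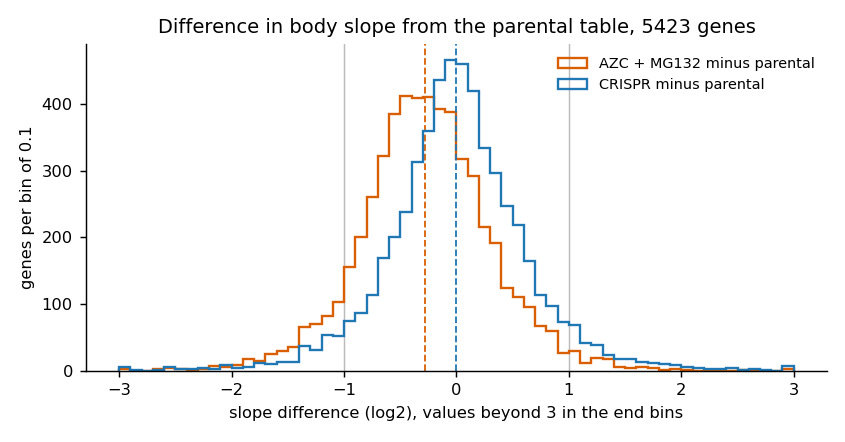
Number of genes (y axis) per 0.1 of slope difference from the parental table (x axis, log2), for AZC + MG132 and for CRISPR over 5423 genes; dashed lines mark the medians and grey lines the 2-fold limits. The AZC + MG132 curve is shifted to a median of -0.28, and the CRISPR curve is centred on 0.

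Among well covered genes, RBM22, a spliceosome component, had the largest downward difference. Its slope was 0.38 in the parental, -0.12 in the edited and -1.50 in the treated table, a difference of -1.88. COX5B, a subunit of cytochrome c oxidase, followed at 0.77, 0.17 and -1.10, a difference of -1.87. In both genes the treated table was the lowest of the 3 and the edited table lay between. COX5B bins 161 to 180 held 13.4% of body depth in the parental and 4.14% in the treated table, while bins 81 to 100 held 17.3% and 26.2%.

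CENPU, a kinetochore protein, had slopes of 0.40, 0.20 and -1.29 in the parental, edited and treated tables. GSTO1, a glutathione transferase, had 0.26, 0.27 and -1.31. SMPD4, a sphingomyelinase, had 0.76, 0.43 and -0.78. In these 3 genes the parental and edited slopes were above 0 and the treated slope below it. The treated slope was also the lowest in CDK11B, a cyclin-dependent kinase (-0.05, 0.19 and -1.56), in SGTA, a co-chaperone of tail-anchored proteins (0.16, -0.31 and -1.34), and in IDI1, an isomerase of the mevalonate pathway (1.09, 0.96 and -0.40).

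Other bodies tilted the other way in the treated cells. HGH1, a folding factor for elongation factor 2, had slopes of 0.41, 0.99 and 1.68 in the parental, edited and treated tables, a difference of 1.27 from the parental. CHPF, which polymerises chondroitin, had 0.47, 0.86 and 1.52. In both genes the edited table lay between the parental and the treated one. BIRC6, a very large ubiquitin ligase, went from -0.47 in the parental to 0.40 in the treated table, and CHID1, a chitinase-domain protein, from -1.12 to -0.26.

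Among well covered genes the largest upward differences belonged to 2 very short proteins, and their bins need care. TMSB10, an actin-binding thymosin, had slopes of -6.94, -6.10 and -2.11, and RPL41, a ribosomal protein, had -5.52, -5.11 and -1.29 in the parental, edited and treated tables. The differences were 4.83 and 4.23. In TMSB10 depth dropped at the middle of the body, with 31.8% of parental depth in bins 81 to 100 and 0.207% in the next 20 bins, and the 20 bins up to bin 160 held 0.242% in the parental against 8.86% in the treated table. In RPL41, bins 21 to 40 held 94.6% in the parental and 59.9% in the treated table. Isolated footprints put a bin of RPL41 at 2.60 bases, so its 200 coding bins span more bases than so short a protein needs, and bins past the drop may lie beyond the stop codon. That was not tested.

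Among abundant genes of a fixed set, GAPDH, a glycolytic enzyme, had slopes of -0.26, -0.32 and -1.15 in the parental, edited and treated tables. HSPA8, the constitutive HSP70, had -0.17, -0.24 and -0.70. SPARC, a secreted matrix protein, had 0.24, 0.10 and -0.74. For these the parental and edited tables lay close together and the treated one lower. TUBA1B, an alpha tubulin, was at 0.26, 0.29 and -0.11, EEF1A1, the factor that brings aminoacyl-tRNA to the ribosome, at -0.05, -0.04 and -0.25, and EEF2, the translocation factor, at -0.19, -0.21 and -0.47. GPX4, a selenoprotein peroxidase whose frame is read through a UGA codon, was at 0.19, -0.45 and -0.74, and SQSTM1, an autophagy receptor, at 0.17, -0.16 and -0.25.

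Other abundant bodies differed little or the other way. HSPA5, the HSP70 of the endoplasmic reticulum (ER), had slopes of -0.02, 0.12 and 0.12 in the parental, edited and treated tables. ACTB, the cytoplasmic actin, had 0.30, 0.37 and 0.16, and VIM, the intermediate filament protein vimentin, 0.09, 0.17 and -0.04. AHNAK, a giant scaffold protein, stood at 0.04, -0.01 and 0.01. The treated minus parental difference was 0.14 in HSPA5, -0.14 in ACTB, -0.13 in VIM and -0.03 in AHNAK. ATF4, which drives transcription in the integrated stress response, had -0.01, 0.38 and 0.41, with body depths of 6604, 14151 and 188312.

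The gene groups were read against 5423 genes, of which 70.4% had a lower slope in the treated cells with a median difference of -0.28. Ribosomal protein genes were lower in 73 of 79 members, with a median of -0.50. In this group 2 members passed the limit downwards, RPL18 with a difference of -1.11 and RPL28 with -1.14, and RPL41 upwards. Glycolytic enzymes were lower in 15 of 16 members at the minimum (median -0.54), proteasome and ubiquitin genes in 33 of 37 (-0.48) and cytosolic chaperones in 30 of 34 (-0.43). So in these 4 groups nearly every member had a downward difference, and few were past 2-fold. Their median parental coverage was 99.4% to 100%, against 95.6% over all genes. Of all rows with every body bin covered in the 3 tables, 89.3% were lower, and of rows with a depth of at least 50000, 86.1%. The shares in these groups, 88.2% to 93.8%, lay near those of such deep or fully covered rows. Their median differences, -0.43 to -0.54, were larger in size than the -0.30 of the deep rows and the -0.38 of the fully covered rows. Coding length was not matched in this comparison.

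RPL3, the deepest ribosomal protein row, had slopes of 0.00, 0.08 and -0.51 in the parental, edited and treated tables, and LDHB, a lactate dehydrogenase subunit, had -0.01, 0.04 and -0.41. HSP90AA1, the inducible cytosolic HSP90, had 0.37, 0.23 and -0.25. In each the treated table was the lowest of the 3. Among well covered chaperones DNAJB1, an inducible HSP40, differed most, at 0.64, 0.88 and -0.34. The chaperone past the limit was DNAJB4, another HSP40, at 0.50, -0.74 and -1.12, with a parental body depth of 3068, close to the minimum. In the proteasome list PSMC5, an ATPase subunit of the cap, had 0.12, 0.01 and -0.92. UBB, a polyubiquitin gene, differed by -2.13, but its bins 21 to 80 held no depth in any table and 94.5% to 98.7% of its depth lay in bins 81 to 100, and reads shared with other ubiquitin genes were not tested.

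Integrated stress response genes were lower in 10 of the 12 members at the minimum, with a median of -0.51. SLC3A2, the heavy chain of amino acid transporters, had the largest difference there, with slopes of 0.53, 0.33 and -0.31 in the parental, edited and treated tables. Immediate early genes were lower in 7 of 10 (-0.51), with MCL1, an anti-apoptotic protein, at 0.98, 1.5 and 0.45, and MYC, a growth transcription factor, at 0.41, 0.78 and 0.85. Ribosome quality control factors were lower in 11 of 16 (68.75%, median -0.43), near the 70.4% of all genes. Past 2-fold downwards were 3 of the 16, against 8.8% of all genes and 11.9% of rows with a lowest depth of 3000 to 12000. So few members do not show an excess. These were ASCC2, a subunit of the complex that splits collided ribosomes (-1.25), ZNF598, the ligase that marks collided ribosomes (-1.07), and EIF4E2, a cap-binding repressor recruited to them (-1.04). ASCC2 was shallow, with a treated body depth of 4131 and 53.1% of bins covered, and EIF4E2 had a treated body depth of 9420. RACK1, the deepest row of the list, had 0.20, 0.33 and -0.23.

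Elongation and termination factors were lower in 9 of 12 members (-0.35). EEF1G, of the elongation factor 1 exchange complex, had slopes of 0.52, 0.49 and -0.17. EEFSEC, the selenocysteine elongation factor, was past the limit upwards at 1.31, with a treated body depth of 4127 and 55.6% of bins covered. ER folding genes were lower in 19 of 25 (-0.31), with PDIA4, a disulfide isomerase, at 0.15, 0.08 and -0.77 and HSP90B1, the ER HSP90, at 0.10, 0.23 and -0.10. Aminoacyl-tRNA synthetases were lower in 16 of 22 (-0.29), with SARS1, for serine, at 0.29, -0.07 and -0.38 and EPRS1, for glutamate and proline, at -0.03, 0.26 and 0.22. Cytoskeleton genes were lower in 24 of 32 (-0.21). These 4 groups lay near the value for all genes.

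Collagens and matrix genes stood at a median of -0.01, with 10 of 17 members lower. This list holds proline-rich collagens beside other proteins. Whether proline content or coding length bears on its median was not tested. COL11A1, its deepest row, had slopes of 0.28, 0.38 and 0.58 in the parental, edited and treated tables. P4HA1, a subunit of the enzyme that hydroxylates collagen prolines, was past the limit at 0.05, -0.06 and -1.25. COL1A1 had no row in all 3 tables.

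The number of bases in a bin varies with the length of the coding sequence, and the treated slope varied with it. Bases per bin could be read in 5068 of the 9709 rows, from isolated footprints whose whole width was seen. That needs a footprint to span at least 3 bins, so very long coding sequences and fully covered rows are not among them. The median slope difference between AZC + MG132 and parental was -0.47 in the 269 rows with under 3 bases per bin. It was -0.39 with 3 to 6 bases, -0.28 with 6 to 10, -0.18 with 10 to 15 and -0.04 in the 515 rows with 15 or more. The share of rows with a lower slope went from 76.2% to 53.2% over these classes. Short coding sequences thus had the larger tilt, and the edited table showed no such order, with medians between 0.01 and 0.07. The 4641 rows without a reading had a median of -0.27 at a median parental depth of 24965, against 8480.5 in rows with one.

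Even the longest measured coding sequences held more treated depth at the beginning of the body. In rows with 15 or more bases per bin, bins 21 to 40, centred 534 bases from the start codon in the median row, had a treated to parental ratio of 1.22, and bins 41 to 60, centred at 884 bases, a ratio of 1.0. In rows with 3 to 6 bases per bin the ratio was 1.34 at 141.3 bases, 1.12 at 234 bases and 1.06 at 327 bases, and it reached 0.83 at 790 bases. The ratio was highest in the first window of each class except that with under 3 bases, where it was 1.19 in the first and 1.23 in the next window. Depth is scaled within each row, so an excess at one end lowers the other end.

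A comparison of the edited with the parental line asks how ribosomes lay along the body in each. The median row had the same slope in both, and single genes differed in either direction. The slope in the CRISPR table minus that in the parental table had a median of 0.00 (interquartile range -0.33 to 0.34), and 50.3% of rows were lower. The 2-fold limit was met upwards by 507 rows (5.22%) and downwards by 466 rows (4.8%), or by 281 genes (5.18%) and 261 genes (4.81%) with 1 row per gene. Of the 799 rows with a body depth of at least 50000 in each table, 1 was past the limit downwards and 0 upwards. Set directly against the AZC + MG132 table, slopes in the CRISPR table had a median difference of 0.28. The limit was met upwards by 1209 rows (12.5%) and downwards by 357 (3.68%), or by 674 genes (12.4%) and 207 genes (3.82%).

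ACADVL, a mitochondrial fatty acid dehydrogenase, had the largest upward difference among well covered genes. Its slope was -0.42 in the parental, 1.05 in the edited and -0.50 in the treated table, a difference of 1.47. NRAS, a small GTPase, was at -0.10, 1.21 and -0.23, and its 20 bins up to bin 160 held 9.12%, 34.5% and 11.5% of body depth. In both genes the edited table stood alone. Parental body depth was 15238 in ACADVL and 13000 in NRAS, not far above the median of 12200 used for naming genes. Genes were named here for the size of this difference, so large values follow in part from the choice. MCFD2, a partner of an ER cargo receptor, was at -0.21, 1.11 and 0.60, so there the treated table was also above the parental.

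CD59, a complement inhibitor, had slopes of 0.64, 1.94 and 0.36 in the parental, edited and treated tables. PPP5C, a protein phosphatase, had 0.10, 1.36 and 0.30, and NDUFV1, a subunit of respiratory complex I, had -1.12, 0.13 and -1.64. SERPINA3, a protease inhibitor, had -0.19, 1.06 and -0.38, and PEF1, a calcium-binding adaptor, had -0.51, 0.63 and -0.59. In these 5 genes the later part of the body held a larger share of depth in the edited table than in either of the others. Parental body depth was 13039 in CD59 and 14064 in PEF1, but 26974 in PPP5C.

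In the other direction, SOX8, a neural crest transcription factor, had slopes of -0.07, -1.76 and -1.04 in the parental, edited and treated tables, a difference of -1.69 from the parental. SMU1, a splicing factor, had -0.01, -1.41 and -1.08, and AGPAT1, an acyltransferase of phospholipid synthesis, had 0.75, -0.62 and -0.27. RHOC, a small GTPase of the actin cytoskeleton, had 0.60, -0.58 and -0.82. In these genes the edited and the treated table were both below the parental one, as they were in ARF3, a GTPase of vesicle traffic (0.22, -1.01 and -0.45), and in the mitochondrial ribosomal proteins MRPL28 (0.06, -1.16 and -0.72) and DAP3 (-0.04, -1.23 and -0.61). In C8orf33 the treated table lay close to the parental, at -1.28, -2.64 and -1.46. Parental body depth was 12678 in ARF3 and 29903 in C8orf33.

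No list had a median far from 0 in the edited line. Medians lay between -0.08 for integrated stress response genes and 0.12 for ribosome quality control factors, with ribosomal proteins at -0.01 (42 of 79 lower) and cytosolic chaperones at -0.02 (20 of 34 lower). Each list had 0 or 1 member past the limit in each direction. Members past it upwards were CCN1, a matricellular protein (1.83), and P4HA2, another prolyl hydroxylase subunit (1.04). Downwards they were HBS1L, a rescue factor for stalled ribosomes (-1.32), DNAJB4 (-1.23), EIF2AK3, the ER stress kinase PERK (-1.17), and DNAJB9, an ER co-chaperone (-1.13). ENO2 and RPS24 were past it as well. For RPS24 and ENO2 no fold is given, since the later 80 bins were at 0 in the CRISPR table. DNAJB4, EIF2AK3 and DNAJB9 were close to the minimum, with parental body depths of 3068, 3974 and 4062. CCN1 was covered in 46.9% of bins in the CRISPR table. P4HA2 and HBS1L were deeper, at 9056 and 17414 in the parental table. Well covered members that differed most within their lists stayed short of the limit.

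Among these were SDF2L1, an ER folding factor, with slopes of 0.04, 1.02 and 0.25 in the parental, edited and treated tables, and HSPA4L, an HSP110 chaperone, with 0.09, 1.0 and -0.46. KARS1, the lysyl-tRNA synthetase, had -0.32, 0.51 and -0.17, and ACTG1, the other cytoplasmic actin, 0.31, 1.05 and 0.14. COL4A2, a basement membrane collagen, had 0.30, 0.90 and 0.45, and SLC7A5, an amino acid transporter, -0.15, 0.38 and -0.22. In these 6 genes the edited table was the highest. It was the lowest in EIF5A, a factor that helps ribosomes past proline runs, at 0.10, -0.53 and -0.38. PSMA4, a proteasome core subunit, had 0.29, -0.31 and -0.46, and RPL36, a ribosomal protein, 0.96, 0.43 and 0.18, both lowest in the treated table.

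Some of the steepest parental bodies were steep in every table. Of the 293 rows with a parental slope of -1 or less, 144 (49.1%) were at -1 or less in all 3 tables, and of the 370 rows at 1 or more, 123 (33.2%) were so in all 3. CRYBG1, a crystallin-domain protein, had slopes of 5.55, 5.51 and 5.71 in the parental, edited and treated tables, with at most 1.29% of body depth in any window of 20 bins up to bin 100. EEF1D, a subunit of the elongation factor 1 exchange complex, had 5.91, 6.69 and 5.50 in a row for its long form, whose later part is shared with the abundant short form. H2AC25, a histone H2A, had 2.79, 2.76 and 3.49, and CREM, a cyclic AMP response factor with many isoforms, had 2.51, 4.34 and 3.04.

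Readthrough rows that join neighbouring genes gave steep slopes too. RPS10-NUDT3 was at -4.74, -4.83 and -5.27, HSPE1-MOB4 at -3.51, -3.78 and -3.93, and PEDS1-UBE2V1 at 2.37, 2.14 and 3.16 in the parental, edited and treated tables. Reads that such rows share with the single genes cannot be assigned to either. OAZ1, ornithine decarboxylase antizyme, is read through a programmed frameshift early in its messenger. Its slope was -2.35, -2.23 and -2.17, bins 21 to 40 held 32.3%, 25.3% and 33.9% of body depth and bins 41 to 60 held 37.8%, 40.2% and 31.7%. The fall in OAZ1 was of like size in the 3 tables.

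**Figure D3:**
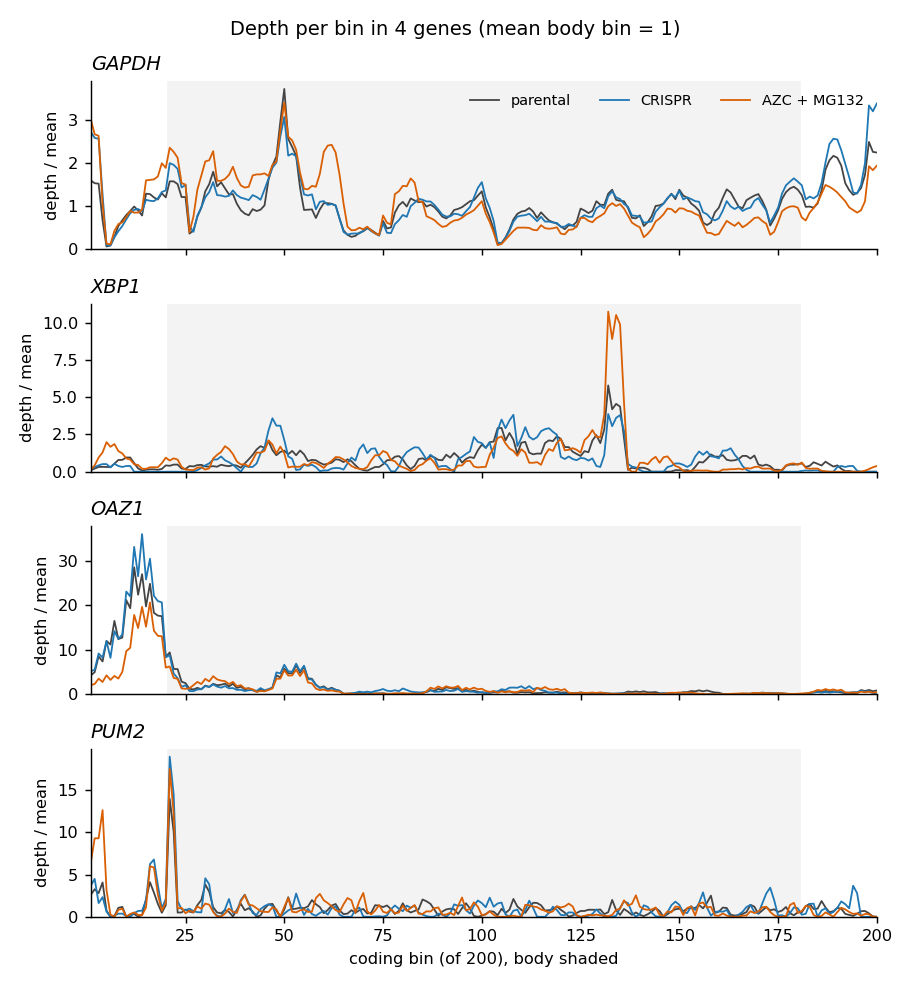
Depth per coding bin (x axis, 1 to 200, body shaded) over the row's mean body bin (y axis) for GAPDH, XBP1, OAZ1 and PUM2 in the 3 tables. GAPDH keeps its peak at bin 50 in every table while the AZC + MG132 line lies lower after bin 100, XBP1 peaks at bins 132 to 135, OAZ1 is deepest before the body, and PUM2 peaks at bin 21.

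Bin by bin, deep rows were more alike between tables than shallow rows. The correlation of the 160 body bins between the parental and CRISPR tables had a median r of 0.22 in 6346 rows with a lowest depth of 3000 to 12000, 0.46 in 2564 rows up to 50000 and 0.83 in the 799 deeper rows. Between parental and AZC + MG132 it was 0.24, 0.46 and 0.75. These values describe bins within a row, which share footprints with their neighbours and the same bin widths. The slopes of rows correlated between the parental and CRISPR tables at r = 0.73, 0.89 and 0.95 in the 3 depth classes.

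Coverage, the share of the 160 body bins with a depth of at least 1, was lowest in the edited line although its table was the deepest, but this order turned with the depth asked of a bin. At a depth of at least 30 the medians over all rows were 45.0%, 40.6% and 29.4%, lowest in the treated table. At a depth of at least 1, the median over all 17641 rows was 80.6% in the parental, 54.4% in the edited and 67.5% in the treated table. In the 9709 rows at the depth minimum it was 95.6%, 78.8% and 89.4%, and every body bin was covered in 2696, 1218 and 1885 of these rows. With a lowest depth of at least 50000 the median was 100% in each table. AHNAK, with one of the longest coding sequences, was covered in 76.2%, 34.4% and 91.2% of bins, and DNAJB9 in 95%, 53.1% and 85.0%.

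The number of copies of each footprint set the edited table apart from the other 2. A run of covered bins that stood alone and whose depths were all multiples of 1 number was read as 1 footprint position of 25 to 33 bases present in that number of copies. Such isolated positions numbered 26091 in the parental, 37035 in the edited and 34277 in the treated table. The most frequent length was 28, 29 and 28 bases, and 76.8%, 75.1% and 77.7% were 27 to 29 bases long, the size of a ribosome footprint. The median position held 3 copies in the parental, 8 in the edited and 3 in the treated table, and 24.9%, 79.1% and 22.8% of positions held 5 or more. The edited table thus had the most copies per isolated position, the widest spread of slopes and the lowest coverage at a depth of at least 1. The treated table had lower coverage than the parental at the same median number of copies. The part of copy number in these differences was not tested.

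**Figure D4:**
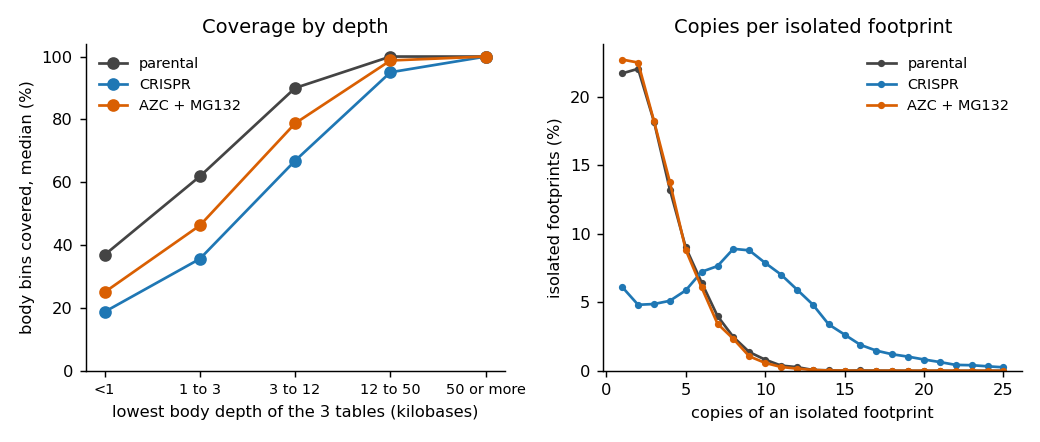
Left, the median percent of body bins covered (y axis) by the lowest body depth of the 3 tables (x axis, in kilobases of footprint); right, the percent of isolated footprint positions (y axis) by their number of copies (x axis, up to 25). Coverage is lowest in the CRISPR table in every depth class below the deepest, and its copies have a median of 8 against 3 in both other tables.

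A row was called peaked where 1 body bin held at least 10 times the row's mean body bin. Peaked rows numbered 202 (2.08%) in the parental, 746 (7.68%) in the edited and 414 (4.26%) in the treated table. With 1 row per gene they were 126 (2.32%), 455 (8.39%) and 237 (4.37%). Their share depended on depth. In the 799 deepest rows it was 0.626% (5 rows) in each table, and in rows of 3000 to 12000 it was 2.87%, 11.3% and 5.96%. In rows of 12000 to 50000 it was 0.585%, 0.858% and 1.21%, highest in the treated table. It also went up with bases per bin, from 1.86%, 4.46% and 1.49% with under 3 bases to 9.71%, 34.4% and 21.9% with 15 or more. The edited table had the highest share in every width class. The order of the tables depends on depth, as above, and on the mean used. Against the mean of covered bins alone, peaked rows made up 0.453%, 0.154% and 0.278%, so the edited table was then the lowest. At 20 times the mean of all body bins they made up 0.360%, 0.752% and 0.319%. Close to the limit, 55 parental, 183 CRISPR and 161 AZC + MG132 rows lay between 10 and 11 times the mean, and 76, 259 and 210 rows between 9 and 10.

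**Figure D5:**
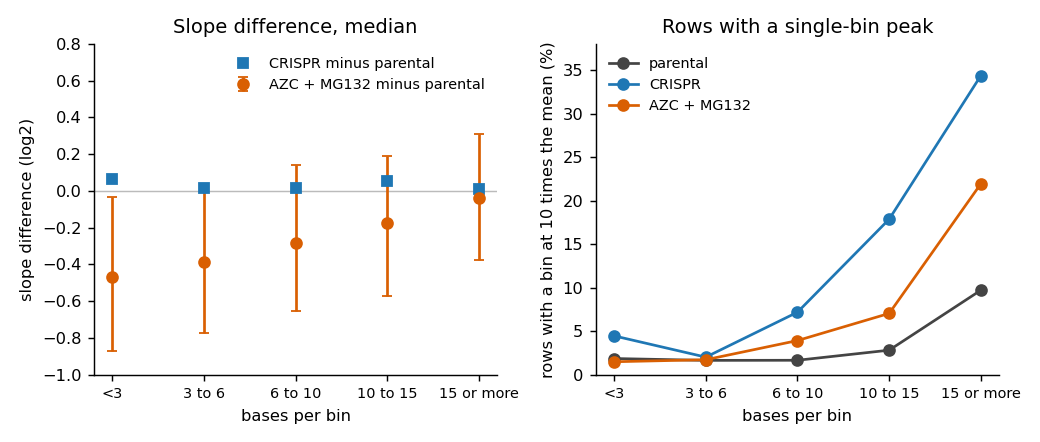
Left, the median slope difference from the parental table (y axis, log2; bars are interquartile ranges for AZC + MG132) by bases per bin (x axis); right, the percent of rows with a single-bin peak in each table. The AZC + MG132 difference goes from -0.47 to -0.04 with wider bins, and peaked rows go up in all 3 tables, to 34.4% in the CRISPR table.

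The place of the top bin was shared between tables in part of the peaked rows. The top bins of the parental and CRISPR tables lay at most 1 bin apart in 15% of all 9709 rows, and in 44.6% of the 202 rows peaked in the parental table and 18.8% of the 746 peaked in the CRISPR table. For parental and AZC + MG132 these were 15.6%, 46.5% and 28.7%. Rows peaked in all 3 tables numbered 115, of 970 peaked in at least 1, and in 56 of them the 3 top bins were at most 1 bin apart. These 56 rows came down to 34 genes with 1 row each.

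Several of the 34 genes have near copies in the genome, so their reads may be shared and their separate values are uncertain. The following were chosen from the 34 after their values were seen. ACTA1, skeletal actin, held 15.2%, 16.6% and 12.3% of body depth in bin 65 of the parental, edited and treated tables, and POTEE, which ends in an actin domain, held 38.5%, 37.1% and 33.4% in bin 153. TUBA8, an alpha tubulin, held 15%, 12.5% and 14.3% in bin 116, and RPL10L, a copy of RPL10, held 13.6%, 13.8% and 14.3% in bin 96. In these rows the covered bins were few, with 10.6%, 13.8% and 14.4% of bins covered in TUBA8. ENO2, the neuronal enolase, held 22.1%, 24.2% and 21.8% in bin 76, and in the CRISPR table only 5.62% of its bins were covered, all in bins 61 to 80.

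Shared peaks also lay in other genes, of which NCOA3 and ZNF384 were likewise chosen after their values were seen. Whether the reads at these peaks also map elsewhere was not tested. PUM2, an RNA-binding repressor, had its top bin at 21 in all 3 tables, with 8.74%, 11.9% and 11% of body depth. Bin 21 stood at 14, 19 and 17.5 times the mean of PUM2 in the parental, edited and treated tables, bin 20 just outside the body at 1.36, 2.12 and 1.68, and bin 23 at 0.50, 1.87 and 0.98. Bins 20 and 23 thus stood far below bin 21, at 2.12 times the mean or less in every table. ATXN2, an RNA-binding protein, held 10.9%, 10.9% and 7.21% in its top bin, which was 27, 28 and 27. NCOA3, a nuclear receptor coactivator, held 12.5%, 20.1% and 14.9% in bin 177, and ZNF384, a zinc finger factor, held 12.3%, 8.30% and 8.84% in bin 176.

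Some peaks took a larger share in the treated table, among them MN1, also chosen after its values were seen. MN1, a transcriptional coregulator, held 9.81%, 13.6% and 20.6% of body depth in bin 81 of the parental, edited and treated tables, with a treated body depth of 3250, close to the minimum. XBP1, the transcription factor of the unfolded protein response, whose unspliced form is known for a pause near its end, had its top bin at 132 in each table, with 3.62%, 2.42% and 6.72%. Bins 132 to 135 of XBP1 stood at 4.19 to 5.80 times the mean in the parental, 3.06 to 3.88 in the edited and 8.91 to 10.8 in the treated table, and bin 137 at 0.12, 0.53 and 0.19. The bins were not matched to the pause site.

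Among deeper and well covered genes, GART, a purine synthesis enzyme, held 2.22% of body depth in bin 24 of the parental table and 8.18% in that of the treated table, while the top bin of the CRISPR table was 80 with 1.98%. NOP14, a ribosome biogenesis factor, held 5.91%, 4.14% and 8.39% in bin 115, and USP7, a deubiquitinase, held 4.97%, 5.08% and 7.64% in bin 159 of the parental, edited and treated tables. HGH1 held 7.83% in bin 143 of the treated table, 4.03% in the same bin of the CRISPR table and 3.19% in the parental top bin, 2 bins before it. Its coverage in the CRISPR table was 75.6%. In these 4 genes the treated table had the tallest top bin, at or near a bin that was also the top elsewhere. GART, NOP14 and HGH1 were named for their top-bin share in the treated table, so a tall bin there follows from the choice.

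Other genes had their top bins at the same or nearby places, in most of them with the largest share outside the treated table. That too follows in part from the choice. ERBB2, HYAL2 and KDM4A were named for their share in the parental table, and KIF5B, BRD2 and CBX6 for that in the CRISPR table. Coverage in the CRISPR table was only 50.6% in ERBB2, 66.9% in HYAL2 and 67.5% in KDM4A. ERBB2, a receptor tyrosine kinase, held 8.50%, 7.30% and 4.08% in its top bin, which was 62, 62 and 64. HYAL2, a hyaluronidase, held 8.40%, 5.42% and 7.14% in bin 71 of the parental, edited and treated tables, and KIF5B, a kinesin motor, held 2.62%, 6.49% and 4.68% in bin 72. TUBB6, a beta tubulin, held 5.65%, 6.51% and 5.11% in bin 168, and BRD2, a bromodomain protein, held 5.50%, 5.97% and 7.50% in bin 108. KDM4A, a histone demethylase, differed from these, with its top bin at 62, 118 and 40 and shares of 6.07%, 4.83% and 4.75%. UBE2S, a ubiquitin-conjugating enzyme, held 5.03% and 5.90% in bin 23 of the parental and CRISPR tables and 5.29% in bin 29 of the treated table, and CBX6, a Polycomb protein, held 3.47%, 5.57% and 3.45% in bins 22, 22 and 21.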

How the data were processed

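The authors deposited 3 tables of log2 values, 1 per condition, with 400 bins per transcript, of which 200 are coding; reads were aligned with Bowtie2 and TopHat2 to hg19, per the submitters' processing notes. The sources used here do not say how libraries were pooled. Depth was recovered as 2 to the power of the deposited value, minus 1 and minus the deposited value of the row above, after which 100% of low body bins (log2 under 4) were whole within rounding. Slopes used a pseudocount of 0.5. Gene names, never coordinates, came from the RefSeq gene table of GRCh38.p14, and 185 rows stayed unnamed. One row per gene, the deepest, stood for each gene.

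Genes named were, above the median depth of genes and with at least 80% of body bins covered in both tables, the 8 largest slope differences per direction and comparison, the 4 steepest parental slopes per direction and the 6 largest top-bin shares per table. For each of 12 lists the most different member within these limits and the deepest member were added, with list members past 2-fold and a fixed set outside them. Some genes that this rule names are not reported here. Members and lists were chosen with earlier results of these data known. Scripts ran in Python 3.11.15 with numpy 2.4.6 and pandas 2.3.3 and were tested on simulated data. Depth counts bases, so no counting interval was computed. Amino acids at peaks were not analysed here.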

Additional observations from a re-analysis of the deposited data

How the results depend on the processing

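The direction of the AZC + MG132 slope difference was the same under each alternative tried, its size and the counts past 2-fold were not, and the order of the tables by peaked rows changed with depth, with the mean used and at 20 times the mean, and that by coverage with the depth asked of a bin. No paired analysis was possible because each group has 1 table and no column of a single library, and no library could be left out. The planned search for amino acids at peaks, with windows of 5 or 15 residues, was not run. Depth at least 50000 and full coverage were chosen after seeing the data. Where a value moved, the cause was not tested. Fewer rows enter under the stricter minimums, which shows in the counts.

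Rows past 2-fold higher and lower, AZC + MG132 minus parental, numbered 782 and 2008 at a minimum of 1000, 12 and 126 at 12000, 3 and 14 at 50000, and 1431 and 3000 with none. They were 105 and 477 with 1 row per gene, 14 and 311 with at least 80% of bins covered, 0 and 46 with all bins covered, 427 and 2145 from the first and last 40 body bins, and 421 and 433 centred on the median difference. For CRISPR minus parental they were 1426 and 1393 at 1000, 22 and 19 at 12000, 0 and 1 at 50000, 2329 and 2317 with no minimum, 281 and 261 with 1 row per gene, 84 and 59 with 80% of bins covered, 1 and 8 with all bins covered, and 1138 and 1095 from 40 bins. Centring itself moves the 2 directions towards equal numbers.

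Rows with a lower slope in AZC + MG132 made up 66.8% at 1000, 79.0% at 12000, 86.1% at 50000, 65.1% with no minimum, 79.7% with 80% of bins covered, 89.3% with all covered and 72.1% from 40 bins. In CRISPR they made up 54.2% at 12000, 54.4% at 50000, 51.6% with 80% of bins covered and 57.1% with all covered. The median AZC + MG132 difference was -0.38 with all bins covered and -0.42 from 40 bins.

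Peaked rows in the parental, edited and treated tables made up 6.35%, 18.2% and 12.5% at 1000, 0.595%, 0.803% and 1.07% at 12000, 0.626% each at 50000, and 11.4%, 25.8% and 19.6% with no minimum. They were 0.0218%, 0.0874% and 0.262% with 80% of bins covered, 0% each with all covered, 23.7%, 45.2% and 39.0% at 5 times the mean, 0.360%, 0.752% and 0.319% at 20 times, 0.453%, 0.154% and 0.278% against the mean of covered bins, and 0.845%, 2.39% and 1.26% for sums of 3 bins. With deposited values they were 1.77% (parental) and 2.87% (AZC + MG132), and with 1 row per gene 8.39% in the CRISPR table. Among rows peaked in either table, top bins lay within 1 bin in 19.8% for parental and CRISPR, 29.1% for parental and AZC + MG132 and 18.1% for CRISPR and AZC + MG132. The same bin gave 14.9%, 23.7% and 13.0%, and 3 bins gave 25.2% and 24.1% for the pairs with CRISPR. Median coverage at a depth of 30 was 45.0%, 40.6% and 29.4%, and in rows at the minimum 95.6%, 78.8% and 89.4%.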
